A study of Mus musculus with 4 samples.

Results

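The Hox cluster genes were followed on 4 arrays of differentiating 3T3-L1 cells, a mouse fibroblast line that becomes fat-like cells under hormonal induction. Members were all genes whose symbol is Hoxa, Hoxb, Hoxc or Hoxd followed by a number and nothing else. Of the 39 such genes in the RefSeq gene table, 33 had at least 1 probe set naming them alone, out of 18194 named genes on the array. The remaining 6 were not analysed here. The 33 genes were read by 48 probe sets, and 11 of them had more than 1.

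There was 1 array for each of 4 groups. Cells received an siRNA against aof2 (the gene now named Kdm1a), an siRNA against rfk, or the control siRNA siGL3, directed at firefly luciferase. They were induced 24 h after transfection with insulin, dexamethasone and isobutylmethylxanthine in medium of 25 mM glucose and 10% serum, and collected 24 h later. A culture given tranylcypromine during induction made up the remaining group, and since the labels mention no siRNA for it, its drug and its lack of transfection cannot be told apart against the control. Aof2 encodes the flavin-dependent histone demethylase LSD1, Rfk encodes the kinase that makes flavin mononucleotide, a precursor of the LSD1 cofactor, and tranylcypromine is a monoamine oxidase inhibitor that also inactivates LSD1. With 1 array per group there is no replicate error and no test, so every difference given here is between single arrays. All 3 comparisons also share the 1 control array, so a departure of that array enters each of them.

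Hox genes encode homeodomain transcription factors that lie in 4 clusters in mammals, in an order along each cluster that follows the order of their expression along the body axis. Genes of low number at the anterior end act in the head and neck, and genes of high number at the posterior end act in the lower trunk, limb ends and genital region. Mesenchymal cells such as fibroblasts and preadipocytes keep part of this pattern in culture, Polycomb complexes keep silent Hox genes shut, and trithorax (MLL) complexes keep active ones open.

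Values are MAS5 signals, a linear intensity per probe set. Their mean after trimming 2% at each end was 500.003 on the aof2 siRNA array, the only array for which it was computed. A gene was compared when its mean log2 signal over the arrays was at least that of the middle probe set, equal to 50.9 in signal, and 10788 of the named genes did so. The median signal of an array was 56.2 (aof2 siRNA), 53.4 (rfk siRNA), 55.6 (tranylcypromine) and 53.3 (control siRNA), and pairs of arrays correlated at 0.932 to 0.938 over probe sets. Kdm1a stood at 681 on the aof2 siRNA array, 3471 on the rfk siRNA array and 3054 on the tranylcypromine array, against 3494 on the control array. Rfk stood at 2018, 573 and 2334 on those arrays, against 2122 on the control array, so each targeted transcript was lowest on the array labelled for it. All 9 markers of preadipocytes and fibroblasts reached the threshold, and so did 3 of 6 measured adipocyte markers (Pparg, Cebpa and Fabp4), while Adipoq, Lep and Slc2a4 did not. Of 21 markers of epithelium, endothelium, macrophages, skeletal muscle and neurons, 4 reached it (Epcam, Kdr, Csf1r and Des), so a signal at this threshold does not by itself show that a gene is active in these cells.

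Of the 33 measured Hox genes, 13 reached the threshold, where 10788 of all 18194 named genes did. They were Hoxa2, Hoxa3, Hoxa4, Hoxa5 and Hoxa7 in the Hoxa cluster, Hoxb2, Hoxb3 and Hoxb4 in the Hoxb cluster, Hoxc6 and Hoxc13 in the Hoxc cluster, and Hoxd3, Hoxd8 and Hoxd9 in the Hoxd cluster. By cluster this is 5 of 9, 3 of 9, 2 of 7 and 3 of 8 measured genes. Sorted by position number, 7 of 10 anterior genes (numbers 1 to 4), 4 of 9 central genes (5 to 8) and 2 of 14 posterior genes (9 to 13) reached it. Beside the share of all named genes, the anterior share was only somewhat higher, and the central and posterior shares were lower. All 5 measured genes of numbers 2 and 3 did, neither measured gene of number 1 did, and none of the 6 genes of numbers 10, 11 and 12 did. Hoxd3 reached it only through its aof2 siRNA array. On the single arrays 13, 12, 12 and 13 of the 33 genes were at or above the threshold, in the order aof2 siRNA, rfk siRNA, tranylcypromine and control siRNA, so the number over it was nearly the same on every array.

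The threshold fell at the upper edge of a gap in the Hox signals, only 0.02 log2 units under Hoxc6. Just under it lay Hoxa9 and Hoxa11, each with a mean signal of 32.4, and just over it lay Hoxc6 (51.6), Hoxa4 (57.4), Hoxd3 (57.5) and Hoxc13 (85.8). A signal depends on the affinity of each probe set as well as on the transcript, so these values rank no gene above another, and a gene under the threshold may still be transcribed.

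**Figure D1:**
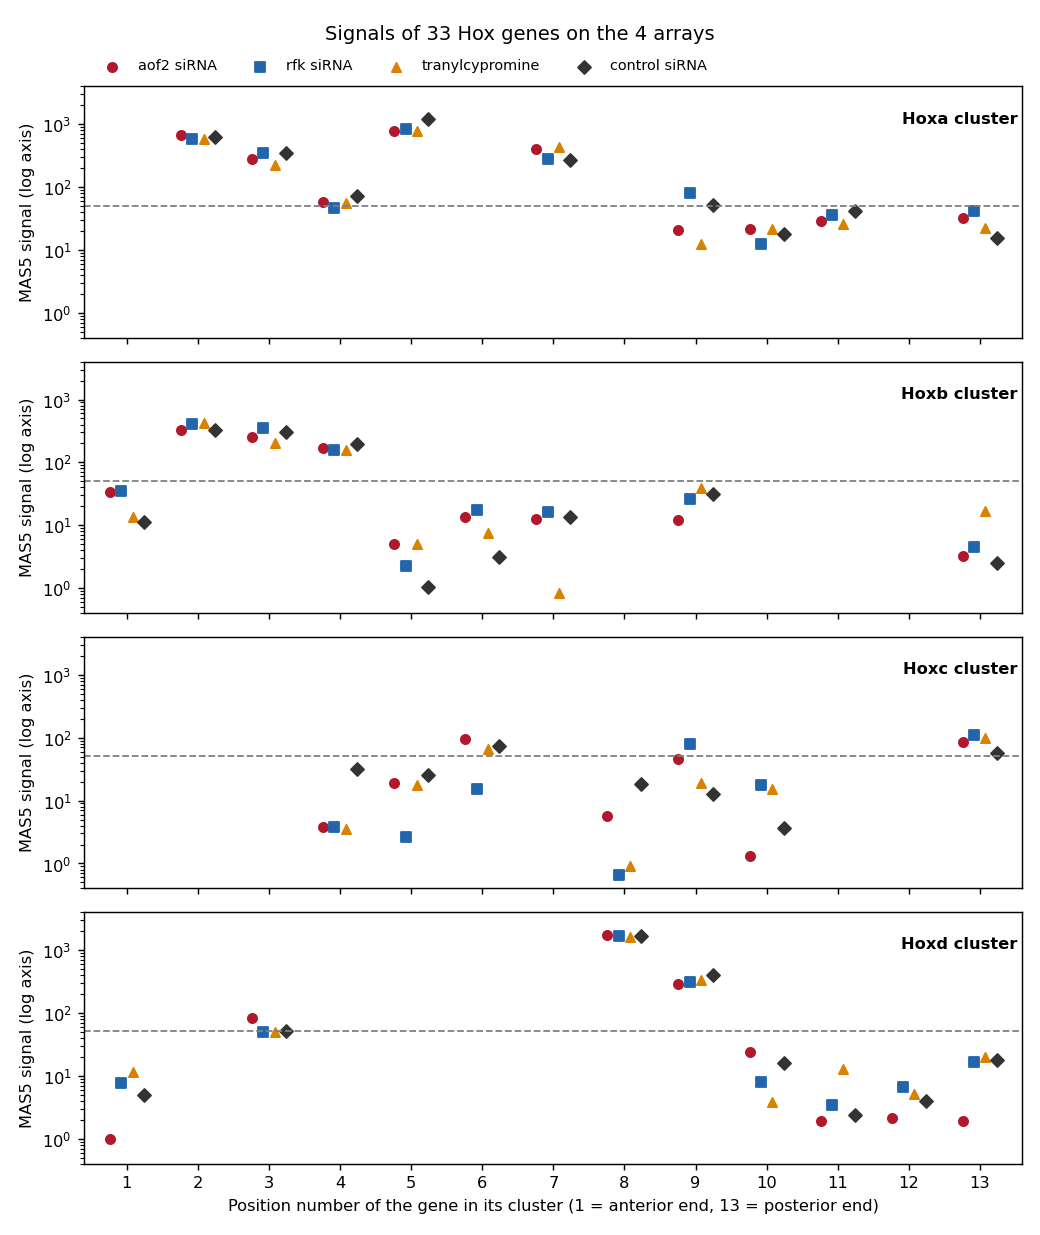
MAS5 signal (log axis) of the 33 measured Hox genes, 1 panel per cluster, against the position number in the cluster; each symbol is 1 array and the dashed line is the threshold of 50.9. Genes of numbers 2 and 3 lie at or near the line or above it on all arrays, whereas all symbols of numbers 10 to 12 lie under it, and symbols of a gene spread far wider under the line than above it.

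To show the DNA next to the transcription starts of the genes described first, the 150 bases before the RefSeq start (build GRCm38.p6) are printed for Hoxa5 and Hoxa7, central genes of 1 cluster that differed from control in opposite directions on the aof2 siRNA and tranylcypromine arrays, and for Hoxd8, the gene that varied least. Hoxa5 is at chr6:52204588-52204737 and Hoxa7 at chr6:52218574-52218723, both on the minus strand, and Hoxd8 is at chr2:74704465-74704614 on the plus strand. Each is written 5′ to 3′ on the strand of its gene. Capitals mark CpG, a dinucleotide that can be methylated and is concentrated in CpG islands, and methylation was not measured here.
Hoxa5: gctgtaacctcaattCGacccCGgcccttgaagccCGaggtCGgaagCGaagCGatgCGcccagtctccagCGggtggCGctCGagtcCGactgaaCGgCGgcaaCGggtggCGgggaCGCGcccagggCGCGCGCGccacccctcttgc
Hoxa7: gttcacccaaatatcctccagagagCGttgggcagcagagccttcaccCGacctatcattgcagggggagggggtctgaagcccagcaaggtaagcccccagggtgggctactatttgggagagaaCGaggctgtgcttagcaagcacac
Hoxd8: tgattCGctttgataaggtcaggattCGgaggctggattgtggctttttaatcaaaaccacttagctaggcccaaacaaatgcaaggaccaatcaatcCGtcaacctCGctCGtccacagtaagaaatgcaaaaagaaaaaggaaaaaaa
The Hoxa5 window held 21 CpG at a GC content of 71.3%, more CpG than 94.9% of 32851 mouse promoter windows of that length. The Hoxa7 window held 3 at 58.0% GC and the Hoxd8 window 5 at 41.3% GC, against a median of 4 over all windows. Neither Hoxa window held the letters TATAAA (the core of the TATA box), CCAAT (the CCAAT box), GGGCGG (the GC box) or TAAT (the homeodomain core) on either strand, which stood in 7.57%, 24.5%, 28.6% and 37.8% of all windows. The Hoxd8 window held CCAAT at 62 bases and TAAT at 102 bases before the start, and no match to the other motifs. These matches describe letters only, in 1 annotated start per gene, and the RefSeq promoter table gave a window for 19 of the Hox genes.

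Hoxa5, a regulator of lung, thoracic skeleton and fat depot identity, had lower signals on all 3 other arrays than on the control array. It stood at 789 with aof2 siRNA, 853 with rfk siRNA and 792 with tranylcypromine, against 1219 with control siRNA. The other 3 arrays lay close together, at 64.7%, 70.0% and 65.0% of the control, and the control array alone stood apart. The log2 differences were -0.63, -0.52 and -0.62. Of the 2065 genes whose mean signal lay within 0.5 log2 units of that of Hoxa5, 1.40%, 2.95% and 2.86% were as far below control in these comparisons. The other Hoxa5 probe set followed the same order of control against the rest, with 579.6, 470.0 and 549, against 819.8 with control siRNA.

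Hoxa7, a central gene that patterns the thoracic vertebrae, was higher on the aof2 siRNA and tranylcypromine arrays. It stood at 405 with aof2 siRNA, 277 with rfk siRNA and 432 with tranylcypromine, against 266 with control siRNA. The aof2 siRNA and tranylcypromine arrays were thus 1.52-fold and 1.62-fold over the control, while the rfk siRNA array was 1.04-fold. Among 1673 genes of like signal, 5.44% were as far above control with aof2 siRNA and 5.20% with tranylcypromine. Hoxa7 had 1 probe set, so no further reading of it was available, and its gene overlaps no other in the RefSeq table.

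The anterior Hoxa genes differed less. Hoxa2, which sets the identity of the second pharyngeal arch, stood at 663, 587 and 579.8, against 622 with control siRNA, and its arrays spanned 0.19 log2 units in all. Hoxa3, which is needed for the thymus and parathyroid, stood at 281 with aof2 siRNA, 347 with rfk siRNA and 227 with tranylcypromine, against 347 with control siRNA. Its tranylcypromine value was 0.61 log2 units below control on the chosen probe set but only 0.16 below on the next brightest one (218 against 243), and over its 4 probe sets this difference ran from -0.93 to 0.36. The Hoxa3 gene overlaps 8 others in the RefSeq table, among them Hoxa4, Hoxa5 and the antisense genes Hoxaas2 and Hoxaas3, and which transcript a probe set read was not tested. Hoxa4, an anterior gene that patterns the neck vertebrae, stood at 57.0, 46.9 and 56.1, against 72.2 with control siRNA. Its other, dimmer probe set ran the opposite way, at 16.6, 32.1 and 42.7, against 11.7, so the direction for Hoxa4 depended on the probe set.

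**Figure D2:**
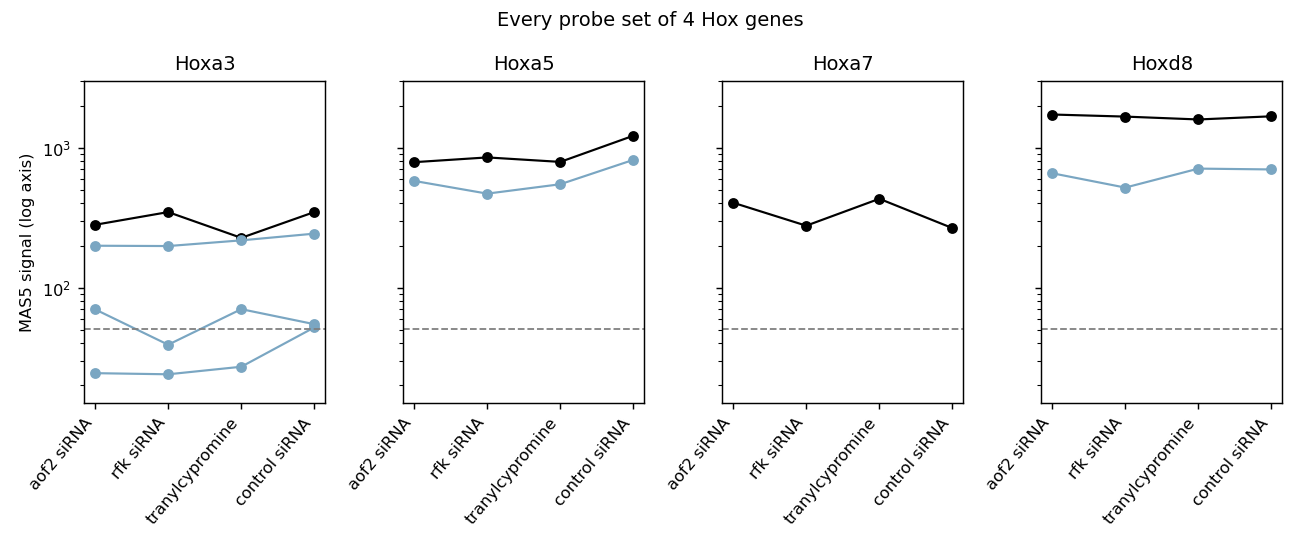
MAS5 signal (log axis) on the aof2 siRNA, rfk siRNA, tranylcypromine and control siRNA arrays for every probe set of Hoxa3, Hoxa5, Hoxa7 and Hoxd8; black is the probe set used, blue the others, lines join readings of 1 probe set and the dashed line is the threshold of 50.9. Both Hoxa5 probe sets are highest on the control array, the 4 Hoxa3 probe sets disagree, and the brighter Hoxd8 probe set is nearly level.

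The Hoxb genes over the threshold were all anterior. Hoxb2, a hindbrain patterning gene, stood at 329.9 with aof2 siRNA, 410.2 with rfk siRNA and 419.9 with tranylcypromine, against 329.7 with control siRNA. Here the aof2 siRNA and control arrays coincided and the other pair was higher, by 0.32 and 0.35 log2 units. Hoxb3, its neighbour, stood at 252, 357 and 207, against 306 with control siRNA. Its order differed again, with rfk siRNA highest (log2 difference 0.23) and tranylcypromine lowest (-0.56), and its other probe set gave -0.60 and -0.13 for these. Hoxb4, known for expanding blood stem cells when overexpressed, stood at 168, 156 and 157, against 194 with control siRNA, differences of -0.21 to -0.32. Its other probe set was also highest on the control array, at 66.9, 56.3 and 64.7, against 84.2. Hoxb3 and Hoxb4 overlap each other in the RefSeq table.

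In the Hoxc cluster, Hoxc6, which patterns the thoracic skeleton and mammary gland, was low on 1 array. It stood at 96.5 with aof2 siRNA, 15.04 with rfk siRNA and 66.2 with tranylcypromine, against 73.7 with control siRNA. The rfk siRNA value was 2.29 log2 units below control and itself lay under the threshold, and 0.477% of 629 genes of like signal were as far below. A further Hoxc6 probe set was also lowest there (51.4, 17.1 and 26.2, against 57.3), but the remaining one, of a kind that can match other transcripts, was highest there (38.3, 57.5 and 17.6, against 28.4). Hoxc13, a posterior gene required for hair and nails, stood at 85.9, 109 and 99.9, against 58.0 with control siRNA. The control array was the lowest of the 4, and the folds over it were 1.48, 1.88 and 1.72. Among 1113 genes of like signal, 18.1%, 4.04% and 9.79% were as far above control.

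In the Hoxd cluster, Hoxd8, a central gene expressed in trunk mesoderm, was nearly level. It stood at 1729 with aof2 siRNA, 1670.5 with rfk siRNA and 1593 with tranylcypromine, against 1679 with control siRNA, a span of 0.12 log2 units over the arrays. Its second probe set, at 658, 519 and 709.5, against 699.9, spread further and was lowest with rfk siRNA. Hoxd9, a posterior gene with roles in the forelimb and lumbosacral region, stood at 289, 310.4 and 340.3, against 406 with control siRNA. The control array was again the highest, and the differences were -0.49, -0.39 and -0.25. Hoxd3, an anterior gene needed for the first neck vertebrae, stood at 84.5 with aof2 siRNA, 50.6 with rfk siRNA and 50.05 with tranylcypromine, against 50.9 with control siRNA. Only the aof2 siRNA array differed from the other 3, by 0.73 log2 units over control. The rfk siRNA, tranylcypromine and control readings lay just under the threshold (50.92 against 50.94 for the control). Hoxd3 thus reached it only through the aof2 siRNA array. The gene overlaps Hoxd4 and the antisense gene Hoxd3os1 in the RefSeq table.

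Taking aof2 siRNA against control, 0 of the 13 genes were 2-fold higher and 0 were 2-fold lower, where 1.61% and 0.538% of the 10788 compared genes were. At 1.5-fold, Hoxa7 and Hoxd3 were higher and Hoxa5 was lower, 2 and 1 of 13, where 6.26% and 2.88% of compared genes were. Hoxd3 reached the threshold only through its high aof2 siRNA reading, so its place in this count follows from that reading. The median log2 difference of the 13 was 0.00, as for all compared genes, with 7 above and 6 below control, where 50.7% of all compared genes were below. Over 13 genes, a single gene moves the share past a fold by more than any of the fold backgrounds given here.

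With rfk siRNA, 0 of 13 were 2-fold higher and 1 was 2-fold lower (Hoxc6), where 0.927% and 0.806% of compared genes were. At 1.5-fold, Hoxc13 was higher and Hoxa4 and Hoxc6 were lower, where 3.92% and 3.80% of compared genes were. The median difference was -0.01, as for all compared genes, with 4 Hox genes above and 9 below control, where 51.5% of all compared genes were below. Among the 9, Hoxa3, Hoxd8 and Hoxd3 were almost at control, at -0.001, -0.007 and -0.010.

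With tranylcypromine, 0 of 13 were 2-fold higher and 0 were 2-fold lower, where 2.23% and 0.945% of compared genes were. At 1.5-fold, Hoxa7 and Hoxc13 were higher and Hoxa3 and Hoxa5 lower, where 7.48% and 4.77% of compared genes were. The median difference was -0.15, against -0.02 for all compared genes, with 3 Hox genes above and 10 below control, where 52.0% of all compared genes were below. Of the 7 anterior genes, 6 lay below control here, Hoxb2 being the other.

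The typical size of a difference, whichever its sign, was larger for the 13 Hox genes than for all compared genes, at a median of 0.34 against 0.18 log2 units with aof2 siRNA, 0.32 against 0.16 with rfk siRNA and 0.35 against 0.21 with tranylcypromine. Probe sets of 1 gene differed from each other by about as much, with a median gap of 0.31, 0.29 and 0.34 over 5228 genes with several probe sets over the threshold. The comparison of the 13 with all compared genes was not matched for signal. Among genes of like signal, the median size was 0.15, 0.14 and 0.18 around the bright Hoxd8. Around the dim Hoxc6 it was 0.36, 0.37 and 0.43, in the order aof2 siRNA, rfk siRNA and tranylcypromine. By cluster, the median differences in the order Hoxa, Hoxb, Hoxc and Hoxd were -0.30, -0.21, 0.48 and 0.04 with aof2 siRNA, -0.08, 0.23, -0.69 and -0.01 with rfk siRNA, and -0.37, -0.31, 0.31 and -0.08 with tranylcypromine. The Hoxc medians rest on 2 genes. Within the Hoxa cluster Hoxa5 and Hoxa7 lay on opposite sides of control with aof2 siRNA and with tranylcypromine, so the cluster did not shift as a block in these comparisons. Fewer cells of a type and less RNA per cell cannot be told apart in such bulk samples, and Fabp4, a fat cell gene, stood at 1301, 791 and 1093, against 2463 with control siRNA. The signals of the 6 adipocyte markers summed to 2460.3, 1563 and 2078, against 3618, sums made up mostly of Fabp4 and Pparg. Pparg was also below control on each array, but Cebpa was above it, at 135, 93.4 and 112, against 91.7. Adipoq, Lep and Slc2a4, which did not reach the threshold, were read above control on each array as well. The 9 preadipocyte and fibroblast markers summed to 84399.8, 83125 and 82270.0, against 77928. Of these 9, 6, 6 and 5 were above control, and Col1a1 was below it, at 983, 715 and 729, against 1438. The endothelial marker Kdr stood at 57.7, 69.3 and 70.5, against 29.0 with control siRNA, with Pecam1, Cdh5 and Tek under the threshold, and the muscle marker Des stood at 25.7, 96.0 and 80.6, against 88.3, with Myod1, Myog and Actn2 under it. The part of these cell types in the Hox differences was not tested.

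**Figure D3:**
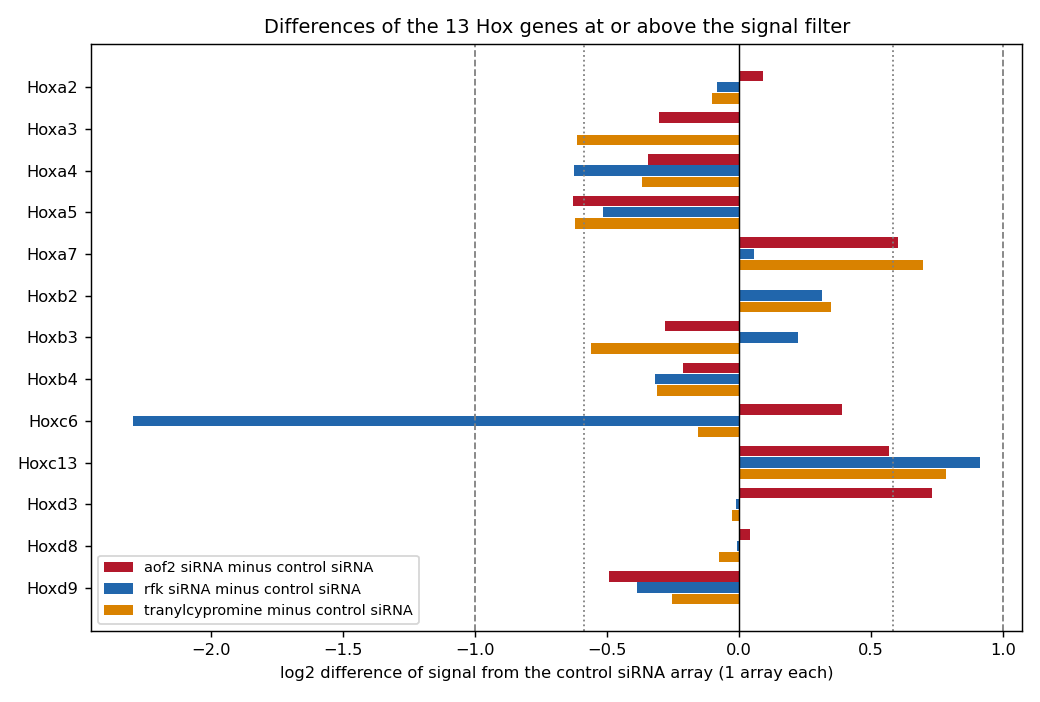
log2 difference of signal from the control siRNA array for the 13 Hox genes at or above the threshold, with aof2 siRNA (red), rfk siRNA (blue) and tranylcypromine (orange), 1 array each; dashed lines mark 2-fold and dotted lines 1.5-fold. Hoxc6 with rfk siRNA, at -2.29, is the only bar past 2-fold, and Hoxa5 and Hoxa7 point in opposite directions with aof2 siRNA and tranylcypromine.

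The 20 genes under the threshold gave signals of 0.657 to 79.5, and 3 of their 80 array values lay above it, in Hoxa9 and Hoxc9. Their differences were wide and irregular, from -4.82 to 2.75 log2 units, and 17 of the 20 differed 2-fold or more in some comparison. That is 85.0%, where 75.1% of all 7406 named genes under the threshold did so and only 5.39% of those at or above it. A 4-fold difference in some comparison was found in 14 of the 20, or 70.0%, where 42.7% of all genes under the threshold had one. Such differences between dim readings are described here without being read as changes.

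Among those 14, Hoxc4, Hoxc5 and Hoxc8 of the Hoxc cluster were read highest on the control array. Hoxc4 stood at 3.85, 3.82 and 3.53, against 31.4 with control siRNA, and Hoxc8 at 5.68, 0.657 and 0.911, against 18.6. All these values are under 50.9, where MAS5 sets no floor. Hoxc9 was read at 45.7, 78.6 and 19.2, against 12.7 with control siRNA, and Hoxa9 at 20.9, 79.5 and 12.5, against 52.8. The rfk siRNA array was the highest for both of these posterior genes. Hoxb5, Hoxb6, Hoxb7, Hoxb13, Hoxc5, Hoxc10, Hoxd1, Hoxd10, Hoxd11 and Hoxd13 made up the rest of the 14, with no signal above 25.1 on any array.

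Hox proteins bind DNA with TALE homeodomain cofactors (Pbx, Meis and Pknox). Of 9 such genes listed, 8 were measured and 7 reached the threshold. Of the 7, 0 differed 2-fold in any comparison, where 5.39% of all compared genes did in some comparison. Meis2 stood at 4941, 6084 and 4484, against 4646 with control siRNA, and Pbx3 at 2917, 2343 and 1762, against 2225. The median difference of the 7 was 0.09 with aof2 siRNA, 0.09 with rfk siRNA and -0.28 with tranylcypromine, where 6 of the 7 lay below control and 52.0% of all compared genes did. The largest single values were 0.64 for Pbx4 with rfk siRNA and -0.40 for Pknox2 with tranylcypromine.

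Subunits of Polycomb repressive complex 2, which writes the repressive H3K27 methyl mark on silent Hox genes, were all measured over the threshold (11 of 11). Their medians were -0.12, 0.08 and -0.07, and the catalytic subunit Ezh2 stood at 3332, 3939 and 3561, against 3638 with control siRNA. With tranylcypromine 10 of 11 lay below control, among them Rbbp4 and Aebp2 at a log2 difference of -0.00, where 52.0% of all compared genes were below. Of the 11, 1 was 2-fold lower, where 0.945% of compared genes were, the accessory subunit Phf19, at 86.4, 65.8 and 25.4, against 86.1. Only its tranylcypromine value was under the threshold. Suz12, another subunit, was 0.06 above control with tranylcypromine on the probe set used. Its 6 probe sets over the threshold ran from -1.03 to 0.06 there, so the lowest was past 2-fold. Jarid2, which helps to recruit the complex, stood at 394, 431 and 271, against 465.

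Of 18 listed genes of Polycomb repressive complex 1, which compacts chromatin and ubiquitinates H2A, 15 reached the threshold, with medians of 0.02, 0.14 and 0.00. Only Pcgf5, a subunit of variant complexes, passed 2-fold, 1 of 15 with tranylcypromine, where 2.23% of compared genes were that much higher. It stood at 822, 841 and 1566, against 763 with control siRNA. Its tranylcypromine array alone was high, and its probe sets gave differences of 0.83 to 1.04 there. Cbx6, a chromobox subunit, stood at 2894, 2595 and 2412, against 1711, with the control array lowest. Cbx2, another chromobox subunit, showed the same order of control against the rest, at 168, 166 and 145, against 117.

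On the trithorax side, all 14 measured genes of 15 listed reached the threshold, with medians of -0.08, 0.00 and -0.09. On the probe sets used, 0 of 14 passed 1.5-fold in any comparison. In a given comparison and direction, from 2.88% to 7.48% of all compared genes did. The share past 1.5-fold in any comparison was not computed, so this count is not read against a background. Other probe sets of 2 of them over the threshold went past 2-fold with tranylcypromine, at -1.59 for Kat6a and -1.14 for Kdm6b. Kmt2a, the MLL1 methyltransferase that maintains Hox expression, stood at 413, 459 and 336, against 479 with control siRNA. Kdm6b, a demethylase that removes the H3K27 mark, stood at 609, 674 and 618, against 764.

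Evx2, a homeobox gene beside the posterior end of the Hoxd cluster, was the only one of 9 ParaHox and flanking genes over the threshold, at 80.7, 81.4 and 78.0, against 47.5 with control siRNA. The control array was the lowest for it, as for Hoxc13, and under the threshold. Of 26 other transcription factors of mesenchymal position, 12 reached the threshold, with medians of 0.06, -0.05 and -0.16. En1, a marker of the dermomyotome and ventral limb, stood at 109.7, 75.5 and 43.6, against 90.0, and was the only one past 2-fold, 1 of 12 with tranylcypromine, where 0.945% of compared genes were that much lower and its own value was under the threshold. Emx2, a forebrain and urogenital factor, stood at 206, 151 and 133, against 248, and Msx1, a limb and craniofacial factor, at 506, 587 and 327, against 351.

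Retinoic acid induces Hox genes in embryos, so the genes of its signalling were listed too. Of 18, 16 were measured and 8 reached the threshold, but Aldh1a1 and Dhrs3 did so only through the arrays on which they were high, so no count or median of these 8 is given. Aldh1a1, which makes retinoic acid, stood at 142, 93.0 and 72.2, against 9.66 with control siRNA. Dhrs3, which turns retinal back into retinol, stood at 115, 45.3 and 184, against 17.0. The control reading of both and the rfk siRNA reading of Dhrs3 were under the threshold, and these differences are not read as changes. Rdh10, which makes retinal, stood at 1046, 1216 and 1142, against 731, a bright gene with the control array lowest. Rara, a retinoic acid receptor, stood at 147, 59.2 and 89.9, against 116, lowest with rfk siRNA.

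**Figure D4:**
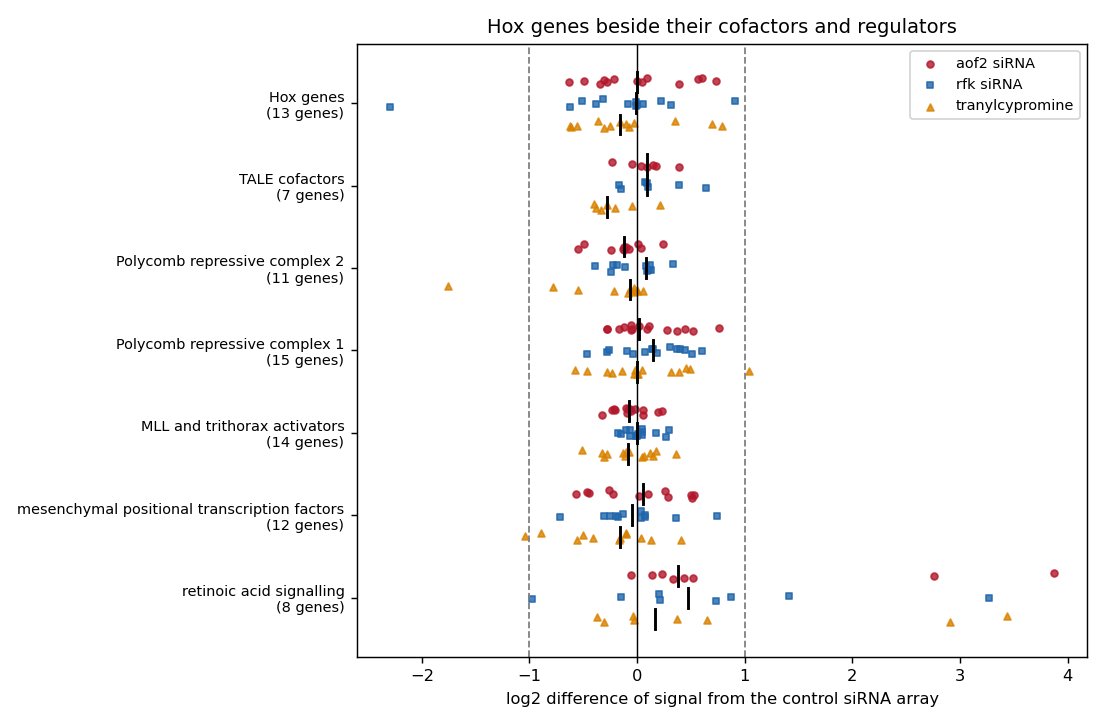
log2 difference of signal from the control siRNA array for genes at or above the threshold in the Hox clusters and in 6 other lists, with aof2 siRNA (red circles), rfk siRNA (blue squares) and tranylcypromine (orange triangles); each symbol is 1 gene, black ticks are medians and dashed lines mark 2-fold. The Hox medians are 0.00, -0.01 and -0.15, and the trithorax genes lie between -0.51 and 0.36. The points farthest right are Aldh1a1 and Dhrs3, whose control readings were under the threshold. These genes raise the retinoic acid medians, which are drawn but not read.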

How the data were processed

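The authors deposited 1 MAS5 signal per probe set and array, a linear intensity, per the submitters' processing notes. Not given in the sources used here were its version, its scaling target and any detection calls. RNA (250 ng per array) had been converted to biotin-labelled cRNA, per the labels' protocols. Equal scaling of the arrays, where applied, hides differences in total RNA per cell.

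Signals of 45101 probe sets were taken to log2 with no offset, using Python 3.11.15, pandas 2.3.3 and NumPy 2.4.6. The platform annotation gave 1 symbol to 34958 probe sets, several to 932 and none to 9211. Each gene was read from its brightest probe set, by mean log2 signal over all 4 arrays. Differences are each array minus the control siRNA array. With 1 array per group no test was made, and this number limits the precision. The counting code was checked on simulated signals without noise, which does not show how such counts vary between single arrays. Hox genes over the threshold were named with their signals, those under it when they differed 4-fold, and of each other list from the 2 highest and 2 lowest differences. Ezh2, Rbbp4, Kat6a, Rdh10, Fabp4, Kdr and Des were added after their values were seen. Members and lists were chosen with earlier results of these data known. Alternatives were the filter, scaling, offset, probe-set rule, reference and fold. Promoter windows came from RefSeq.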

Additional observations from a re-analysis of the deposited data

How the results depend on the processing

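The count of Hox genes past 2-fold depended mainly on the filter on dim signals. With no filter, 5 were higher and 7 lower with aof2 siRNA, 6 and 5 with rfk siRNA, and 6 and 5 with tranylcypromine, since the dim genes then count. A filter at the 75th percentile left 3 Hox genes (Hoxa2, Hoxa5 and Hoxd8), and the number lower with rfk siRNA was then 0. It was 0 also when a gene's probe sets were averaged, where Hoxc6, at -1.01, fell under the filter. Hoxa4 fell under the filter there too, which left 11 Hox genes instead of 13. A 1.5-fold threshold gave 2 higher and 1 lower with aof2 siRNA, 1 and 2 with rfk siRNA, and 2 and 2 with tranylcypromine. Against the mean of the 3 other arrays, 1 gene was higher with aof2 siRNA (Hoxc6, 1.21).

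Among the values for single genes under the alternatives, 216 moved by no more than 0.34 log2 units, and 18 moved further. That limit is the largest of the median gaps between probe sets of a gene, the one with tranylcypromine. Many of the values could not move, since a gene with 1 probe set keeps its value under another probe-set rule. In 15 of the 234 the sign differed from that reported, of which 1 had been past 1.5-fold. That was Hoxa4 with rfk siRNA, at 0.42 with probe sets averaged, against -0.62, because its 2 probe sets disagree, and on the same setting Hoxa4 was 0.08 with aof2 siRNA and 0.75 with tranylcypromine and Hoxb3 was -0.19 with rfk siRNA. Against the mean of the 3 other arrays Hoxa5 was -0.25, -0.10 and -0.24, and Hoxc13 was 0.00, 0.46 and 0.29, in the order aof2 siRNA, rfk siRNA and tranylcypromine, since the control array stood apart for both. Hoxa7 stayed higher with aof2 siRNA (0.35 to 0.60) and tranylcypromine (0.48 to 0.71) under another centring, quantile normalization, an offset of 16 and a reference averaged over the 3 other arrays, and the choice of probe set could not change it, as it has 1. With rfk siRNA it was -0.38 against that reference. No paired analysis was possible because each group had 1 array.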

Other observations

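RNAs of the Hox clusters outside the naming rule were also on the array. Hoxd3os1, an antisense gene that overlaps Hoxd3, stood at 219 with aof2 siRNA, 94.6 with rfk siRNA and 149 with tranylcypromine, against 111 with control siRNA, and was highest on the aof2 siRNA array, as Hoxd3 was. Its other probe set stood at 42.0, 46.6 and 51.3, against 26.9, with another array highest. A pair of probe sets shared by Hoxd3 and Hoxd4 stood at 99.5, 61.1 and 87.2, against 58.8, and at 102, 73.2 and 149, against 85.0. Whether these probe sets read 1 transcript was not tested. Hoxa11os stood at 35.7, 32.2 and 17.2, against 5.48 with control siRNA, all under the threshold. Hoxb5os stood at 44.1, 28.4 and 39.8, against 41.9, under it as well.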
